A study of Mus musculus with 6 samples.

Results

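Prdm1 and 5 of its relatives in the PRDM gene family, Prdm2, Prdm4, Prdm10, Prdm11 and Prdm15, were followed in mouse CD4 T cells that carried either a retrovirus with Blimp-1 cDNA or the empty retrovirus. The members were found by gene symbol, older synonyms included, and the values of all transcripts of a symbol were added up. They are 6 of 22626 genes in the deposited table. All 6 have a value in every library, and 5 passed the filter on low values (at least 1 FPKM, a read count scaled to the transcript's length and to the library's size, in 3 or more of the 6 libraries) that 10862 genes passed. A further 9 PRDM family genes of the table are described after the 6.

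Naive T cells, wild type and of the C57/BL6 strain, were sorted from spleen and lymph node as CD4+ CD44lo CD62L+ CD25neg. They were activated on plates with antibodies to CD3 and CD28 (10 ug/ml), with antibodies that block IL-4 and interferon gamma, for 36 h. At that point they received MigR1, a retroviral vector with GFP as its marker, or MigR1 with the Blimp-1 cDNA, and after 2 days of further culture GFP+ cells were sorted. A second label gives the activation as 3 days. There are 3 libraries per vector, from 3 biological replicates that the labels call independent, each from about 0.5 M sorted cells. Both groups are thus activated, undifferentiated (Th0) cells that went through transduction, and by the labels they differ in the cDNA alone. The virus adds Blimp-1 to cells that still have their own Prdm1 gene, and the level it gives is set by the vector.

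PRDM proteins carry a PR domain, a relative of the SET domain of histone methyltransferases, and nearly all of them also carry zinc fingers that bind DNA. A few methylate histones themselves, and others bring in enzymes that do. Prdm1 encodes Blimp-1, a repressor that drives the plasma cell fate in B cells and that in T cells holds back IL-2 production and cell expansion and marks effector and exhausted cells. Prdm2 encodes RIZ, a histone methyltransferase and tumour suppressor. Prdm4 encodes a partner of the arginine methyltransferase Prmt5. Prdm10 encodes an activator of the tumour suppressor gene Flcn, Prdm15 a regulator of signalling genes in early embryo cells, and Prdm11 a family member without zinc fingers.

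The zinc fingers are what these proteins read DNA with, so the coding sequences of the members were searched for the Cys2-His2 codon pattern on the coding strand of GENCODE M21 transcripts (GRCm38). Prdm1 held 4 such units in 823 codons, Prdm2 6 in 1709, Prdm4 5 in 803, Prdm10 9 in 1135, Prdm15 16 in 1174 and Prdm11 0 in 565. Fingers with another spacing, or with another residue in place of a cysteine or histidine, are not counted by this pattern. The units made up 10.2% of the coding length of Prdm1 and 28.9% of that of Prdm15. The 4 units of Prdm1 are printed because Prdm1 is the gene whose cDNA the virus carries. To show how far apart the members are, 1 unit of each relative that has any is printed as well. It is from those with the highest identity to a Prdm1 unit of the same length. Capitals mark the codons of the paired cysteines and histidines, and each run is 63 bases of coding sequence, 5′ to 3′.
Prdm1 unit 1: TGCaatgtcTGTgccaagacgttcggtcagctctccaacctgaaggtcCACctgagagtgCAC
Prdm1 unit 2: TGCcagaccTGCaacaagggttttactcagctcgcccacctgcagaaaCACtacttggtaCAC
Prdm1 unit 3: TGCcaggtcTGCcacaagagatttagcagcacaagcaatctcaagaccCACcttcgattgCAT
Prdm1 unit 4: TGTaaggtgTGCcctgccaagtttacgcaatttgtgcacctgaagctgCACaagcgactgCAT
Prdm4 unit 2: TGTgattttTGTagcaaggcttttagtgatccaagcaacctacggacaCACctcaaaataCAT
Prdm10 unit 6: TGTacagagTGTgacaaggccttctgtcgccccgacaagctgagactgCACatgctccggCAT
Prdm15 unit 1: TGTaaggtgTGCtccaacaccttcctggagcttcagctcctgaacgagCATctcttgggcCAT
Prdm2 unit 2: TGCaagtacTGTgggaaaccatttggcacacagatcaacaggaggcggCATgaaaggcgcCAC

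Base by base, the 4 Prdm1 units were 49.2% to 58.7% identical to each other. Units of the relatives were compared with them where they also had 63 bases. The printed unit of Prdm4 was 58.7% identical to unit 3 of Prdm1. The printed units of Prdm10, Prdm15 and Prdm2 were 58.7%, 55.6% and 50.8% identical to unit 1. No compared unit of these genes had a higher value, and other units of Prdm4 and Prdm15 tied. The longest run of bases that any of the 5 relatives shared with the Prdm1 transcript was 14 bases, in Prdm15, against reads of 50 bases. Reads of the Blimp-1 cDNA that match exactly therefore match no transcript of the 5 relatives. Of the 50-base runs of Prdm4, 4.09% also occurred in another gene (Gm14783, Gm14784 and Gm17740), as did 0.497% of those of Prdm2. Prdm1, Prdm10, Prdm11 and Prdm15 had 0 such runs.

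Empty vector libraries held an estimated 18.6 to 41.6 M reads, and Blimp-1 libraries 36.6 to 50.0 M. In each library 10720 to 10840 genes had 1 FPKM or more. Empty vector replicate 3 stood apart on the first principal component (52.8% of the variance), at 33.7 against -22.7 to 12.6 for the other 5 libraries. The T cell markers were all present: Cd3e lay between 232 and 327 FPKM and Cd4 between 217 and 335 FPKM. Of the plasma cell markers Tnfrsf17 was at 0 in all 6 libraries, Jchain, Sdc1 and Mzb1 stayed at or below 1.31 FPKM, and Irf4 is also a gene of activated T cells. The 5 NK markers summed to 3.34 to 28.4 FPKM with the empty vector and 13.7 to 35.3 FPKM with Blimp-1, most of it from the receptor gene Klrd1. Klrk1 had 0.158 to 2.13 FPKM and 0.903 to 4.87 FPKM, and the NK-defining gene Ncr1 was at 0. Cd8a stayed at or below 0.169 FPKM, although Cd8b1 had 7.01 to 10.9 FPKM. The summed B cell markers reached 1.64 to 4.82 FPKM with the empty vector and 1.49 to 5.87 FPKM with Blimp-1. Summed myeloid markers had 0.527 to 1.41 and 1.08 to 1.37 FPKM. Libraries with the same replicate number deviated together from their vector's mean, so each result has a value with the replicate number as a block beside the one without it where the call differs.

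Prdm1 comes first because it checks the labels. With the empty vector it had 0.996, 2.03 and 1.38 FPKM in replicates 1, 2 and 3, and with the Blimp-1 vector 9.91, 12.8 and 9.45 FPKM. All 3 Blimp-1 libraries were far above all 3 empty vector libraries, the direction that the labels give. Transcripts of the virus and of the cells' own gene are added together in this value. In bulk RNA a larger share of Prdm1-expressing cells and more Prdm1 RNA per cell cannot be told apart. The estimated reads behind it were 74, 323 and 98 with the empty vector and 1757, 2454 and 1324 with Blimp-1.

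The means of Prdm1 were 1.47 ± 0.525 and 10.7 ± 1.83 FPKM (SD, n = 3 each), a ratio of 7.30. On the log2(FPKM + 1) scale, on which differences of low genes come out too small, Prdm1 was higher by 2.45, 2.19 and 2.13 in pairs 1, 2 and 3. The fitted log2 fold change was 2.26 (SE 0.19, 95% interval 1.8 to 2.71). Without the block limma gave an adjusted p of 0.0569 over all genes, just above the threshold of 0.05. It passed with median scaling (0.0409) and without empty vector replicate 2 (0.0349). With the replicate block Prdm1 rose (SE 0.09, 95% interval 2.04 to 2.48, limma adjusted p = 0.00507). It was then 1 of 2 genes called, and 0.00921% of the tested genes were called higher. Without the block the test called 0 genes higher and 0 lower (0.0%), with 122 at an unadjusted p under 0.05, against 2220 with the block. The exact two-sided permutation test over the 6 libraries gave p = 0.1 for Prdm1, the smallest value that 3 against 3 libraries allow.

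Among the 10862 tested genes Prdm1 had the highest fitted fold change. The next highest was the pseudogene Pisd-ps1 at 1.8, whose groups overlapped. By size, falls included, Prdm1 ranked 2, since the lowest fitted value was -2.38. By level, Prdm1 stood above 1.5%, 9.5% and 5.5% of the tested genes in empty vector replicates 1, 2 and 3. With Blimp-1 it stood above 46.2%, 53.5% and 44.7% of them. Prdm1 thus stood at the low end of the tested genes with the empty vector and near their middle with Blimp-1. The low rank is partly set by the filter. Prdm1 passed the filter only with its Blimp-1 libraries, since empty vector replicate 1 had 0.996 FPKM. Its coefficient of variation was 35.7% among empty vector libraries and 17.0% among Blimp-1 libraries. The labels do not say which stretch of the cDNA the virus holds, and the annotated transcript has 4025 bases, 2472 of them coding. FPKM is scaled to the length of the annotated transcript.

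**Figure D1:**
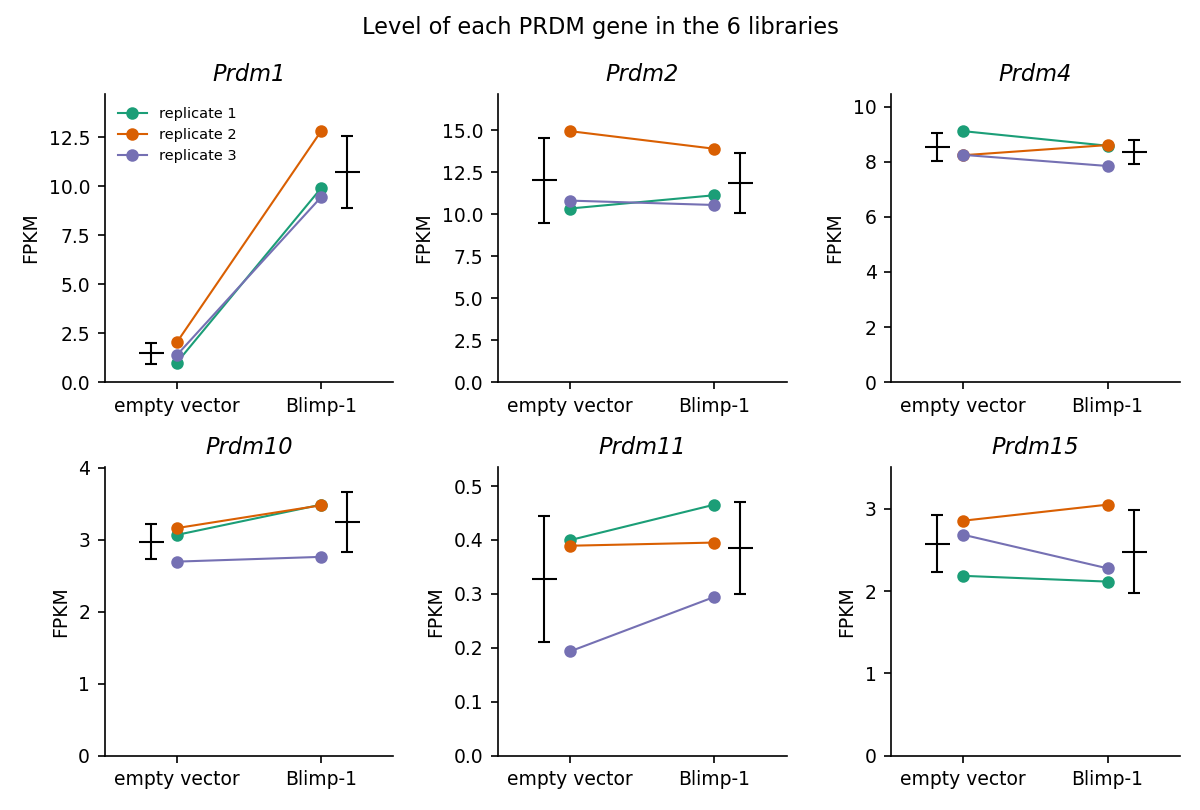
Level in FPKM (vertical axes, each starting at 0) of the 6 PRDM genes under either vector. Points are libraries, lines join libraries of the same replicate number, and the black marks give the mean and SD of 3 libraries. Prdm1 goes from a mean of 1.47 to 10.7 FPKM, and the groups of the other 5 genes overlap.

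Prdm2, the methyltransferase gene, had the highest level of the 6 with the empty vector. Its values were 10.4, 15.0 and 10.8 FPKM in replicates 1, 2 and 3, and 11.1, 13.9 and 10.6 FPKM with Blimp-1. The groups overlapped, and replicate 2 was the highest in both. Prdm2 averaged 12 ± 2.54 FPKM with the empty vector and 11.9 ± 1.79 FPKM with Blimp-1 (SD, n = 3 each). Pairs 1, 2 and 3 differed by 0.10, -0.10 and -0.03 on the log2 scale. The fitted difference was -0.01 (SE 0.18, 95% interval -0.43 to 0.41, limma adjusted p = 0.998). With the block the interval narrowed to -0.19 to 0.16. The exact permutation p was 0.9.

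The Prdm2 value is the sum of 2 RefSeq transcripts. NM_001081355 held 69.9%, 83.9% and 69.7% of it in empty vector replicates 1 to 3 and 70.5%, 79.3% and 75.7% in Blimp-1 replicates 1 to 3. Replicate 2 again had the highest share under both vectors. The other transcript, NM_001256380, had 2.93 ± 0.459 FPKM with the empty vector and 2.91 ± 0.363 FPKM with Blimp-1 (SD, n = 3 each). How the authors' quantification split reads between the transcripts is not given in the sources used here, so the sum is the firmer of these values.

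Prdm4, the gene of the Prmt5 partner, was the steadiest member. It had 9.11, 8.24 and 8.25 FPKM with the empty vector and 8.58, 8.61 and 7.85 FPKM with Blimp-1. Its coefficient of variation was 5.87% and 5.17%, and the groups overlapped. Mean levels of Prdm4 were 8.54 ± 0.501 and 8.35 ± 0.432 FPKM (SD, n = 3 each). Its pair differences of -0.08, 0.06 and -0.06 had no common sign. The fitted difference was -0.03 (SE 0.12, 95% interval -0.30 to 0.25, limma adjusted p = 0.998), and the interval with the block was -0.195 to 0.14. Between 577 and 1621 estimated reads per library stand behind these values.

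Prdm10, the activator of Flcn, had 3.07, 3.16 and 2.70 FPKM with the empty vector and 3.49, 3.48 and 2.76 FPKM with Blimp-1. Replicate 3 was the lowest under both vectors. Each Blimp-1 library was above the empty vector library of its number, by 0.14, 0.11 and 0.03 on the log2 scale, while the groups as wholes overlapped. A higher value in 3 of 3 pairs was found for 22.9% of all tested genes. The fitted difference of 0.09 (SE 0.14, 95% interval -0.22 to 0.41) did not pass (limma adjusted p = 0.998, and 0.504 with the block). Prdm10 averaged 2.98 ± 0.246 and 3.25 ± 0.416 FPKM (SD, n = 3 each), from 161 to 559 estimated reads. The span of Prdm10 overlaps that of Gm10910, as that of Prdm2 does those of Gm13039, Gm22039 and Mir7021, and the strand setting of the counting is not given in the sources used here.

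Prdm15 had 2.18, 2.86 and 2.68 FPKM with the empty vector and 2.12, 3.05 and 2.28 FPKM with Blimp-1. Replicate 2 was the highest in both groups, and the groups overlapped. Prdm15 averaged 2.58 ± 0.348 and 2.48 ± 0.50 FPKM (SD, n = 3 each). Differences within pairs were -0.03, 0.07 and -0.17, and the fitted value was -0.04 (SE 0.16, 95% interval -0.41 to 0.32, limma adjusted p = 0.998). The interval with the block was -0.25 to 0.16.

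Prdm11, the member without zinc fingers, was the lowest in all 6 libraries and did not reach 1 FPKM in any, so it was not tested. It had 0.400, 0.389 and 0.193 FPKM with the empty vector and 0.466, 0.395 and 0.294 FPKM with Blimp-1. The Blimp-1 library was higher in all 3 pairs, by 0.07, 0.01 and 0.12 on the log2 scale, and the groups overlapped. Only 6 to 36 estimated reads per library stand behind Prdm11, and its span overlaps that of the long noncoding RNA gene 4631405J19Rik. The exact permutation p over the 6 libraries was 0.6.

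**Figure D2:**
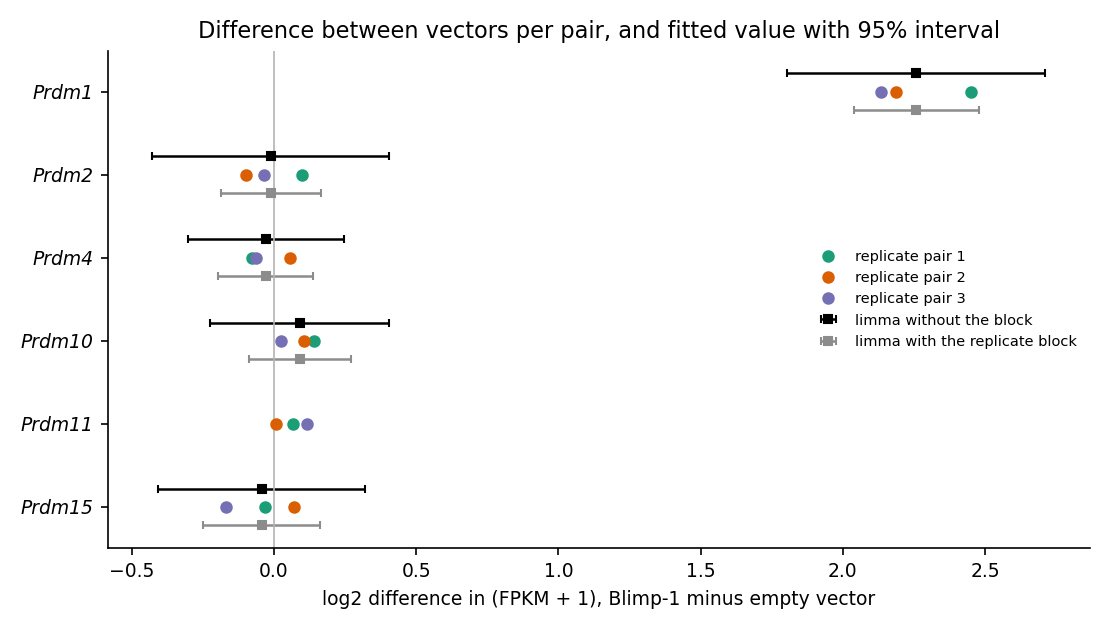
Difference between vectors for each PRDM gene, as Blimp-1 minus empty vector in log2(FPKM + 1) on the horizontal axis. Coloured points are the 3 replicate pairs, and squares with bars are the limma estimate and its 95% interval without (black) and with (grey) the replicate block. The Prdm1 points lie between 2.13 and 2.45, every interval of the other tested members contains 0, and Prdm11 has points alone because it was not tested.

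Read against all genes, 1 of the 5 tested members had groups that did not overlap, against 4.62% of tested genes. With the block 1 of 5 was called, against 0.0184%. In both counts the 1 member is Prdm1, the gene that the virus adds, so they say nothing about the family. The groups of the 4 other tested members overlapped, and none of these was called. The 3 pairs had the same sign for 2 of the 5 tested members, Prdm1 and Prdm10, against 45.7% of tested genes. The 4 other tested members had fitted differences between -0.04 and 0.09, around the median of -0.01 over all tested genes. Prdm1, Prdm2 and Prdm15 had their highest value in replicate 2 under both vectors, and Prdm10 and Prdm11 their lowest in replicate 3 under both. Some markers of T cells and of other cells also moved with the replicate number. Cd3d, Cd4 and Cd28 were highest in replicate 2 under both vectors, at 351 and 336, 335 and 310, and 128 and 133 FPKM. Cd3e, Cd3g and Trat1 were highest there with the empty vector alone. The B cell gene Cd79a had 0.547, 1.54 and 0.335 FPKM with the empty vector and 0.403, 1.49 and 0.243 FPKM with Blimp-1, again highest in replicate 2. Klrd1 had 12.7, 26.2 and 3.16 FPKM and then 15.1, 30.4 and 12.8 FPKM. The part of cells other than T cells in the members' values was not tested.

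The order of levels changed through Prdm1 alone. With the empty vector it ran from Prdm2 through Prdm4, Prdm10, Prdm15 and Prdm1 to Prdm11. The ranges of Prdm10 and Prdm15 overlapped there, and no other neighbours did. With Blimp-1, Prdm1 moved between Prdm2 and Prdm4. Its range of 9.45 to 12.8 FPKM then overlapped that of Prdm2 (10.6 to 13.9 FPKM) and lay above that of Prdm4 (7.85 to 8.61 FPKM). Prdm10 and Prdm15 overlapped under Blimp-1 as well.

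The FPKM of the 6 genes summed to 26.1, 31.6 and 26.0 with the empty vector and to 35.7, 42.3 and 33.2 with Blimp-1. Prdm1 made up 3.81%, 6.43% and 5.30% of that sum with the empty vector and 27.8%, 30.3% and 28.5% with Blimp-1. The share was 5.18 ± 1.31% and 28.9 ± 1.33% (SD, n = 3 each), a difference of 23.7 percentage points with an exact permutation p of 0.1, the smallest possible. Because the virus adds Prdm1, this share restates the vector check and says nothing about the 5 relatives. Without Prdm1 the sums were 25.1, 29.6 and 24.7 FPKM against 25.8, 29.4 and 23.7 FPKM. Their means of 26.5 ± 2.74 and 26.3 ± 2.89 FPKM (SD, n = 3 each) differed by -0.01 on the log2 scale (exact permutation p = 0.9). The summed level of the 5 relatives thus differed between vectors by less than its spread between replicates.

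**Figure D3:**
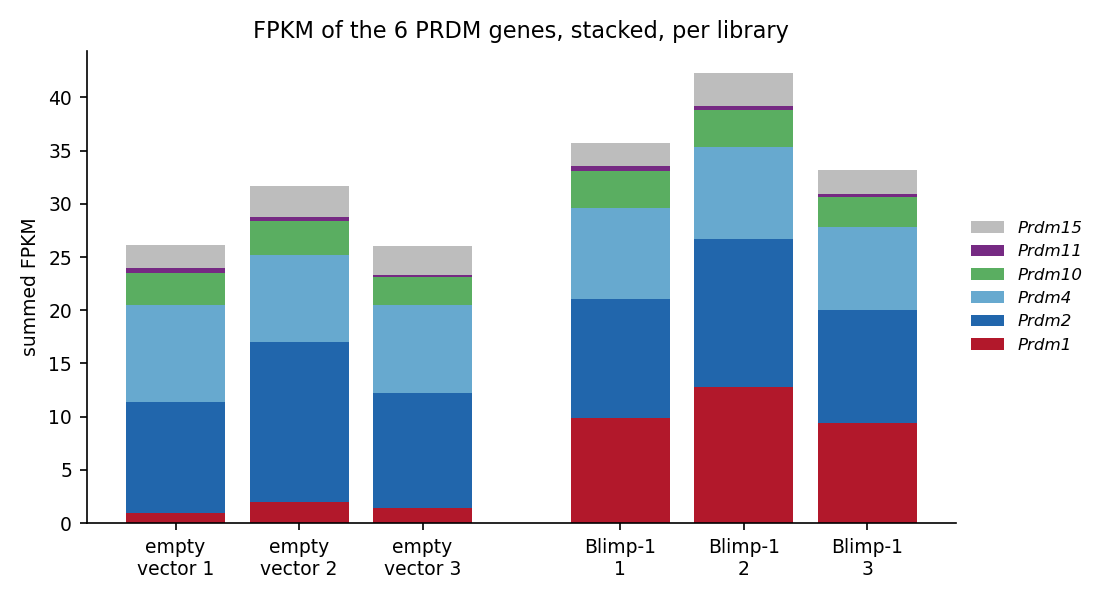
Summed FPKM of the 6 PRDM genes (vertical axis) in each library, stacked by gene. The Prdm1 segment at the base takes 3.81% to 6.43% of the bar in the 3 empty vector libraries and 27.8% to 30.3% in the 3 Blimp-1 libraries, and the segments above it add up to 23.7 to 29.6 FPKM in all 6.

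Of these 9 other PRDM family genes, 5 were listed at 0 in all 6 libraries: Mecom of blood stem cells, Prdm6 of smooth muscle, the neural genes Prdm12 and Prdm13, and the germ cell gene Prdm14. A listed 0 can be a failed estimate. Prdm8 had 0.0440 to 0.107 FPKM, with 28.5% of its 50-base runs shared with other genes. Prdm16, a gene of brown fat and blood stem cells, had 0.924, 0.890 and 1.45 FPKM with the empty vector and 0.878, 0.982 and 1.01 FPKM with Blimp-1. Both stayed under the filter and have no test.

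Both tested genes of this list had lower values with Blimp-1 in 3 of 3 pairs, which held for 22.8% of all tested genes. Prdm9, which marks sites of meiotic recombination, had 2.84, 3.68 and 3.30 FPKM with the empty vector and 1.93, 2.75 and 3.01 FPKM with Blimp-1. The groups overlapped. Its fitted difference was -0.27 (limma adjusted p = 0.998, and 0.192 with the block). Of the 50-base runs of Prdm9, 0.886% also occurred in other genes (108 of them), and its span overlaps that of Gm18564. Zfp408, also known as a PRDM gene, had 5.18, 7.64 and 6.99 FPKM against 4.88, 6.55 and 5.97 FPKM, a fitted difference of -0.16 (limma adjusted p = 0.998, and 0.272 with the block). Neither passed. In the blocked fit without pair 3, the pair that holds empty vector replicate 3, Prdm9 fell (-0.35, limma adjusted p = 0.0172). That fit was added after the values were seen and has 1 residual degree of freedom per gene. To this limma added 23.84 degrees of freedom from the spread of all genes, against 3.644 in the full blocked fit. The fit without pair 3 called 600 genes higher and 720 lower (5.63% and 6.75% of 10665). Its counts therefore stand here beside those of the full fits.

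The genes around the family were read in lists, ordered from the inputs of Prdm1 to the targets of the relatives. None of the lists had a member called in either full fit, in which 0 and 2 of 10862 genes were called. Each list is given by its median fitted difference, beside -0.01 for all tested genes, and by its calls in the blocked fit without pair 3. That fit was added after the values were seen, and its calls of list members hold in neither full fit. Over all genes, the blocked fit called 1 gene higher and 1 lower without pair 1, and 3 and 2 without pair 2.

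All 15 of 15 genes listed as activators of Prdm1 in T cells were tested, with a median of -0.02. Irf4, a factor that switches Prdm1 on, had 16.3, 14.0 and 11.8 FPKM with the empty vector and 18.3, 19.3 and 15.7 FPKM with Blimp-1 (0.33, limma adjusted p = 0.153 with the block). Maf and Stat3 had fitted differences of 0.32 and 0.18. At the other end were the IL-10 receptor gene Il10ra (-0.44), the IL-2 receptor gene Il2ra (-0.29) and Xbp1 (-0.26). Xbp1 is also counted below among the genes known to be raised with Blimp-1. Il10ra was lower in all 3 pairs, at 13.9, 21.7 and 18.6 FPKM against 9.95, 16.1 and 13.2 FPKM. In the blocked fit without pair 3, Irf4 was called higher and Il10ra lower, 1 of 15 each way, against 5.63% and 6.75% of all genes. Of the 15, 5 were higher and 3 lower in 3 of 3 pairs, against 22.9% and 22.8% of all tested genes.

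Repressors of Prdm1 had 5 of 8 members tested, with a median of 0.09. Bcl6, the repressor that opposes Blimp-1, had 8.06, 10.4 and 3.38 FPKM against 10.2, 9.90 and 8.06 FPKM, a fitted difference of 0.43 (limma adjusted p = 0.998, and 0.296 with the block). Its pairs 1, 2 and 3 differed by 0.31, -0.06 and 1.05, and empty vector replicate 3 held the lowest value. Bach2 and Tcf7 differed by 0.16 and 0.09, Lef1 by 0.07 and Foxo1 by 0.03. Leaving out empty vector replicate 3 turned the median of the list to -0.16, and leaving out Blimp-1 replicate 2 to -0.11. In the blocked fit without pair 3, Tcf7 was called lower (-0.23, limma adjusted p = 0.0140), against 0.09 over all 3 pairs, and the other 4 were not called. Mitf, Pax5 and Spi1 were too low to test.

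Genes that Blimp-1 is known to repress had 10 of 17 members tested, with a median of -0.05. Id3, which holds back effector differentiation, was the member whose groups did not overlap, having 52.9, 49.5 and 53.3 FPKM in the empty vector libraries and 41.1, 44.0 and 38.1 FPKM with Blimp-1. Its fitted difference of -0.33 did not pass (limma adjusted p = 0.998, and 0.153 with the block). Groups that did not overlap with Blimp-1 lower were found for 2.34% of all tested genes. Klf2, a factor of naive and recirculating T cells, had 63.3, 106 and 91.1 FPKM against 39.9, 70.7 and 76.3 FPKM (-0.49, limma adjusted p = 0.142 with the block). Myc had a fitted difference of -0.27, from pair values of -0.09, 0.25 and -0.96, and of 0.08 in the blocked fit without pair 3.

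At the upper end of that list stood the IL-7 receptor gene Il7r (0.54, and 0.05 in the blocked fit without pair 3), Bcl6 (0.43, and 0.125) and Bach2 (0.16). Il7r had 22.3 FPKM in empty vector replicate 3 and 49.7 to 102 FPKM in the other 5 libraries. The median of the list changed sign with the libraries used: it was 0.08 without empty vector replicate 2, 0.13 without Blimp-1 replicate 1 and -0.22 without Blimp-1 replicate 2. In the blocked fit without pair 3, 4 of the 10 were called lower and 0 higher: Klf2, S1pr1, Tcf7 and Id3, against 6.75% of all genes lower. Of the 4, S1pr1 and Tcf7 had a difference of the other sign in pair 3. Il2, Ifng, Fos, Pax5, Ciita, Spib and Cxcr5 were too low to test.

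Of the genes known to be raised with Blimp-1, 4 of 8 were tested, with a median of 0.15. It was 0.004 without Blimp-1 replicate 1, 0.07 without Blimp-1 replicate 2, 0.26 without Blimp-1 replicate 3, 0.23 without empty vector replicate 1 and -0.007 with no filter. The inhibitory receptor gene Lag3 had 24.2, 13.3 and 5.90 FPKM with the empty vector and 33.4, 20.5 and 11.6 FPKM with Blimp-1. Tigit, another inhibitory receptor gene, had 4.40, 5.23 and 1.93 FPKM against 6.06, 8.13 and 3.95 FPKM. Both were higher in 3 of 3 pairs, by fitted differences of 0.64 and 0.57, and neither passed with the block (limma adjusted p = 0.142 each). Without pair 3 both were called higher in the blocked fit, 2 of 4 list members against 5.63% of genes. Gzmb, the granzyme B gene, and Xbp1 had fitted differences of -0.31 and -0.26, and of 0.16 and -0.04 without pair 3. Il10, Havcr2, Cd160 and Cd244a were too low to test.

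The corepressors that Blimp-1 works with were all tested, 12 of 12, with a median of 0.03, and of -0.002 to 0.05 with single libraries left out. Suz12, a subunit of the Polycomb complex, had groups that did not overlap (41.9, 35.2 and 39.9 FPKM against 47.0, 43.1 and 42.1 FPKM), which 2.28% of tested genes showed in that direction. Its fitted difference was 0.17 (limma adjusted p = 0.246 with the block). Tle2, of the Groucho corepressors, had 2.80, 2.68 and 1.27 FPKM against 4.22, 4.45 and 2.54 FPKM (0.55, limma adjusted p = 0.142 with the block). Ezh2, the Polycomb methyltransferase, differed by 0.18. The lowest were Hdac1 (-0.20), Prmt5 (-0.06) and Hdac2 (-0.05). Tle2 and Suz12 were called higher in the blocked fit without pair 3, and 0 members lower, against 5.63% and 6.75% of all genes.

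Reported targets of the other PRDM proteins had 4 of 6 members tested, with a median of -0.10. Leaving out single libraries gave -0.24 (without Blimp-1 replicate 1) to -0.02 (without Blimp-1 replicate 3), and the blocked fit without pair 3 gave 0.002. Flcn, the target of the Prdm10 protein, had 20.4, 15.7 and 13.7 FPKM against 23.6, 17.1 and 16.0 FPKM, higher in 3 of 3 pairs (0.17, limma adjusted p = 0.221 with the block). Spry1 of the Prdm15 protein differed by 0.04 and Jun of the Prdm11 protein by -0.24. Ccne1, the cyclin E gene linked to the Prdm4 protein, had 10.2, 8.49 and 17.5 FPKM against 6.6, 7.13 and 10.9 FPKM (-0.47, limma adjusted p = 0.145 with the block). Without pair 3 Ccne1 was called lower in the blocked fit, the only call of the 4, against 6.75% of all genes. Fos and Rspo1 were too low to test.

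**Figure D4:**
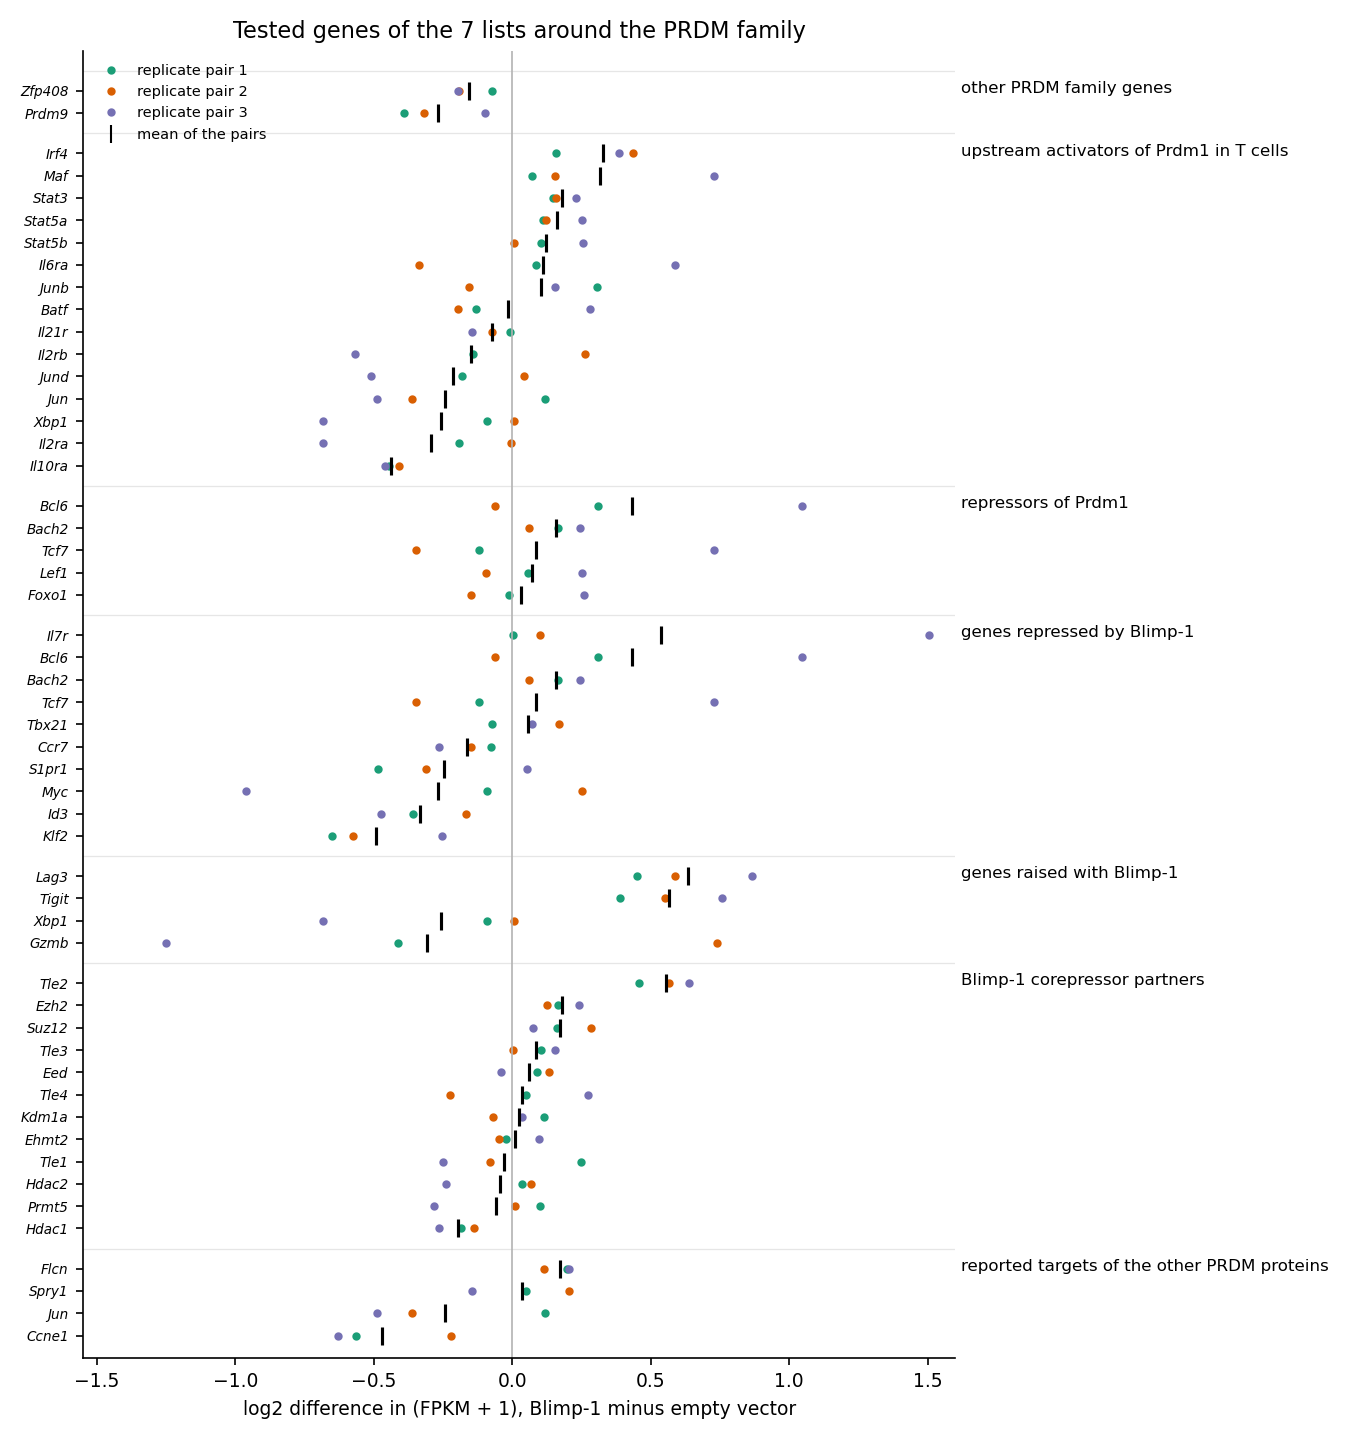
Difference between vectors, Blimp-1 minus empty vector in log2(FPKM + 1) on the horizontal axis, for each tested gene of the 7 lists around the PRDM family. Coloured points are replicate pairs and black ticks their mean. The 5 genes with pair 3 farthest from the mean of pairs 1 and 2 are Il7r, Gzmb, Myc, Tcf7 and Bcl6. Genes with all 3 pairs on the same side of 0 include Lag3, Tigit, Tle2, Klf2, Id3, Il10ra and Ccne1. They also include Il7r and Bach2, among others, and 45.7% of all tested genes share this trait.

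Likeness to Prdm1 was taken as Pearson's r of log2(FPKM + 1) over the 6 libraries, for the 8202 tested genes with a mean of 5 FPKM or more under at least 1 vector. With 3 libraries low and 3 high in Prdm1, a high r marks a gene that separates the vectors in the same way, and the libraries share their depth and their pairing. The 5 highest were Ahnak (0.981), Mdm4 (0.978), Haus2 (0.965), Cd80 (0.950) and Slk (0.946). Ahnak, Mdm4, Haus2 and Slk had fitted differences of 0.31, 0.15, 0.21 and 0.13, and none of the 5 passed in either full fit. Cd80, which encodes a costimulatory ligand, had 8.87, 8.83 and 8.26 FPKM with the empty vector and 12.9, 12.9 and 14.5 FPKM with Blimp-1, a fitted difference of 0.58 (limma adjusted p = 0.142 with the block). The 5 lowest were Atp6v0d1 (-0.972), Etv3 (-0.964), Igfbp4 (-0.955), Mbd2 (-0.950) and Pik3r2 (-0.938). Atp6v0d1, Etv3, Mbd2 and Pik3r2 had fitted differences of -0.18, -0.17, -0.24 and -0.08 and did not pass in either full fit. Of the other PRDM genes, Prdm2, Prdm4 and Zfp408 were abundant enough to be compared and are not among these 10.

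Igfbp4, whose protein binds insulin-like growth factors, was the 1 gene besides Prdm1 that the blocked fit called. It had 197, 165 and 297 FPKM with the empty vector and 42.5, 48.2 and 70.9 FPKM with Blimp-1, with no overlap. Its fitted difference was -2.0 (limma adjusted p = 0.560, and 0.00742 with the block).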

How the data were processed

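RNA-seq of 6 libraries (TruSeq from 2 ug of RNA, 50 cycles, single read, HiSeq 2000) was deposited as FPKM per RefSeq transcript, a unit the authors had scaled to length and depth. CASAVA 1.8.2, Cufflinks 2.2, Partek 6.6 and the build mm9 are named in the submitters' processing notes, without their roles. Aligner, annotation release and strand setting were not given in the sources used here. Of 29868 transcripts, 29310 were named by accession, 428 by symbol, 112 kept the deposited symbol and 18 had none.

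Genes with 1 FPKM or above in 3 or more libraries were tested two-sided with limma 3.58.1 (R 4.3.3, Python 3.11.15) on log2(FPKM + 1), vector as the only term, with a mean-variance trend and Benjamini-Hochberg adjustment at 0.05. The script was tested on simulated data with noise independent between libraries. That noise lacked the correlation within replicate numbers given next, so the test checked the code alone. Each library's deviation from its vector's mean had a correlation of 0.798, 0.808 or 0.701 with that of its number in the other vector, and of -0.535 to -0.248 with the others. Deviations from a vector's mean cancel out over its libraries, so the negative values follow largely from the positive ones. The replicate numbers were taken as pairs from the positive values, since the labels do not say what they mark. A second fit used the numbers as a block. FPKM shows shares of the RNA pool.

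Depth was estimated from genes at the value of 1 read, with 200 bases taken off each length of over 2000 bases. Identity and shared runs used GENCODE M21.

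Named were the 6 members, the 9 other family genes, up to 3 tested genes at each end of every list, called genes, the 5 most and least like Prdm1, and leading markers. Genes called only in the blocked fit without pair 3 were named after their values were seen. Members and lists were chosen with earlier results of these data known, and 2 genes of the lists are not reported here and were taken out of the lists' counts and medians.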

Additional observations from a re-analysis of the deposited data

How the results depend on the processing

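Alternatives were the replicate block, a pseudocount of 0.1 or 0.01, a filter of 5 FPKM or none, median and quantile scaling, no trend, the highest transcript per gene, and leaving out each library. The blocked fit without each pair was added after the data were seen. Prdm1 was higher in all 18 alternatives (2.12 to 2.91 on each setting's log2 scale, limma adjusted p 3.02e-15 to 0.428). Prdm1 passed with the replicate block (2.26, limma adjusted p = 0.00507), with median scaling (2.26, 0.0409), and with the block without pair 1 (2.16, 0.0110), pair 2 (2.29, 0.00181) or pair 3 (2.32, 3.02e-15). Leaving out single libraries gave 2.12 to 2.42, and it passed without empty vector replicate 2 (2.42, 0.0349). Calls over all genes were 1 higher and 1 lower with the block, 1 higher with median scaling, and 0 to 1 higher and 0 lower with a library left out. With the block they were 1 and 1 without pair 1, 3 and 2 without pair 2, and 600 and 720 without pair 3. Genes at an unadjusted limma p under 0.05 numbered 766, 2167 and 2827 in these fits. The degrees of freedom that limma added from the spread of all genes were 5.178, 6.062 and 23.84, against 3.644 with all pairs. With 1 residual degree of freedom, the adjusted p-values without pair 3 thus rest mostly on the added part. Why that part was larger there was not tested. The block ended no call and gave no other member one.

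Differences close to 0 changed sign, with no member but Prdm1 passing in any setting. Prdm2 had 0.002 with its highest transcript, 0.033 in the blocked fit without pair 2, and -0.12 to 0.14 with a library left out. Prdm4 ranged from -0.051 to 0.015 and Prdm15 from -0.158 to 0.032 with a library left out, and Prdm15 had 0.02 in the blocked fit without pair 3. The summed relatives ranged from -0.091 to 0.076 in all 12 alternatives. Prdm10 stayed above 0 (0.04 to 0.18 with a library left out), and the Prdm1 share differed by 22.9 to 25.5 points in all 9 alternatives. Medians of lists also moved, and the cause was not tested. Other PRDM genes had a median of -0.21 from 2 tested genes, Prdm9 and Zfp408. It was -0.27 at pseudocount 0.01 and -0.32 to -0.094 with a library left out. The filter changed which genes counted. The median was -0.12 with no filter (4 genes) and -0.16 with a filter of 5 FPKM, which Zfp408 alone passed. Activators had -0.12 to 0.10 with a library left out and 0.075 in the blocked fit without pair 2. Repressors had -0.16 to 0.42. Genes repressed by Blimp-1 had -0.22 to 0.13, and -0.16 with a filter of 5 FPKM. At 6 to 36 estimated reads, Prdm11 allows no fine comparison.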
